A study of Mus musculus with 12 samples.

Results

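Bdnf and the late activity-regulated genes described with it were 10 genes, Bdnf, Nptx2, Homer1, Inhba, Ptgs2, Pcsk1, Vgf, Scg2, Gadd45b and Gadd45g, of the 31208 genes counted in brain tissue of C57BL/6 mice. The members were chosen by name as genes that follow the early transcription factors after neuronal activity, with secreted products as part of the choice. All 10 passed the filter on low counts in each comparison. The 12 mice were 8 weeks old and, per the study's methods, male. There were 4 sham mice, 4 mice with ischemia for 6 h after preconditioning with vehicle, and 4 mice with ischemia for 6 h after preconditioning with lactate, and no genetic modification is labelled for any group. Ischemia was made by occlusion of the left middle cerebral artery, and the study's methods give the preconditioning as an intracerebroventricular injection a day earlier, of sterile saline as the vehicle or of D-lactate, whereas the labels name lactate without its form. Whether the sham mice were injected is not given in the sources used here, so ischemia and the injection cannot be told apart in a comparison with sham. Each labelled replicate, called a mouse here, was 1 library of full-length cDNA read on a nanopore sequencer, with 6815920 to 10677224 counted reads. The labelled tissue is brain without a named region or hemisphere.

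When a neuron is strongly activated, calcium entry turns on early genes that encode transcription factors such as Fos, Egr1 and Npas4, and these, together with the factor CREB, turn on a later set whose products act at synapses and outside the cell. Bdnf encodes brain-derived neurotrophic factor, which is stored in dense-core vesicles, released, and bound by the receptor TrkB. The set is known from seizures, spreading depolarization and ischemia as well as from learning. The members have different jobs. Bdnf and the activin subunit Inhba are ligands, Nptx2 is a secreted pentraxin that clusters AMPA receptors, Homer1 is a postsynaptic scaffold whose short form is the activity-induced one, and Ptgs2 (COX-2) is the inducible enzyme of prostaglandin synthesis. Pcsk1 is a prohormone convertase, Vgf and Scg2 are granins carried in the same vesicles as peptide hormones, and Gadd45b and Gadd45g are nuclear stress proteins linked to DNA demethylation. So the set is only in part secreted. In the Gene Ontology terms deposited with the table, an extracellular place was listed for 5 of the 8 annotated members (Bdnf, Nptx2, Pcsk1, Vgf and Scg2) and for 6.6% of 11459 annotated genes. A secretory or dense-core granule was listed for 4 members (Bdnf, Pcsk1, Vgf and Scg2) and for 0.803% of annotated genes, and the nucleus for 2, Gadd45b and Gadd45g, and for 16.6%. As secretion was part of the choice of members, these shares describe that choice and are not a result. Homer1 and Ptgs2 act inside the cell, and the gene-level counts used here do not separate the forms of Homer1 or the alternative first exons of Bdnf.

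The promoters of the set are shown because CREB, the factor through which activity is known to reach Bdnf, binds the cyclic AMP response element. RefSeq windows from 250 bases before to 50 bases after a start site (GRCm38.p6) were found for 8 of the 10 members, 15 windows in all, with none for Nptx2 and Vgf. They were searched on both strands for the full element TGACGTCA and for its core TGACG, which overlaps the full element. The full element was in the windows of Scg2 and Pcsk1, and in 1.79% of all 32851 windows. The core was in 5 member windows, of Scg2, Pcsk1, Ptgs2, Bdnf and Homer1, and in 20.8% of all windows. The windows with a match follow, each 5′ to 3′ on the strand of its gene, with the matched letters in capitals (CGTCA is TGACG read on the other strand).
Bdnf: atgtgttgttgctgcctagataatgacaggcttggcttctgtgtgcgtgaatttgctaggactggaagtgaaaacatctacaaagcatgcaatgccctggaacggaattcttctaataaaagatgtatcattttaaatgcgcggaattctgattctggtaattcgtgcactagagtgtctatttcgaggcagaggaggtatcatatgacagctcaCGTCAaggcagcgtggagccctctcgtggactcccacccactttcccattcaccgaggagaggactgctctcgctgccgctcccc
Homer1: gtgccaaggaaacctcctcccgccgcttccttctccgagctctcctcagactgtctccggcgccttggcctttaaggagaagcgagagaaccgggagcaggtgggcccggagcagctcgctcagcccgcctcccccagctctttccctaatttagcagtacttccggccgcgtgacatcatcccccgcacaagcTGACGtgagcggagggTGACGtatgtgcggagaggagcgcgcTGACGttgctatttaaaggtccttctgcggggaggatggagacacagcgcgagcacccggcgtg
Ptgs2: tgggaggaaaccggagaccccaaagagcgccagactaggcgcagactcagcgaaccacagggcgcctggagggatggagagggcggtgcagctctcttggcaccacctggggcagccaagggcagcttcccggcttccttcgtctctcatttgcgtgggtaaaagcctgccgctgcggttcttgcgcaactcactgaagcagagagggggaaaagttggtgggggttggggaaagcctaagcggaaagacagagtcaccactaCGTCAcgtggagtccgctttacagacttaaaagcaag
Pcsk1: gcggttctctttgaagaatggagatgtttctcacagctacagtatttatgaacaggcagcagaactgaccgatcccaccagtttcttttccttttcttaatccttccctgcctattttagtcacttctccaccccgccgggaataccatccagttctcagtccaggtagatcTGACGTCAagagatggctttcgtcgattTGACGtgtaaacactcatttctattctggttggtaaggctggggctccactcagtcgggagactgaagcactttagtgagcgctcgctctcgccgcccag
Scg2: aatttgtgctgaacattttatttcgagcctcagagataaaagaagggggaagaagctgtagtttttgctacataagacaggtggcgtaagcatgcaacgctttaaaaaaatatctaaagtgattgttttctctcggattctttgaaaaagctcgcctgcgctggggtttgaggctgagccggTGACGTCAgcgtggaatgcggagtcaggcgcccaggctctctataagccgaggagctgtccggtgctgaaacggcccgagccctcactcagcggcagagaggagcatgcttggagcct

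The Bdnf window lay at chr2:109692186-109692485 on the plus strand and was the only 1 of 7 Bdnf windows with a match, which began 35 bases upstream of the start site. The Homer1 window, 1 of 2 for that gene, lay at chr13:93303507-93303806 on the plus strand and held 3 matches to the core, the first 56 bases upstream. The Ptgs2 window (chr1:150099781-150100080, plus strand) held its match 13 bases after the start site. The Pcsk1 window (chr13:75089607-75089906, plus strand) held the full element 78 bases upstream and a further core between it and the start site. The Scg2 window (chr1:79439977-79440276, minus strand) held the full element 68 bases upstream. The AP-1 site TGACTCA, in 5.2% of all windows, and the CArG box, in 1.63%, had no match in the 15 member windows. These matches describe letters in a window, and binding was not measured.

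In the comparison of vehicle-treated ischemia with sham, 5 of the 10 members rose: Nptx2, Ptgs2, Vgf, Gadd45b and Gadd45g. A gene was called here when it changed by 1.5-fold or more with an adjusted p in edgeR under 0.05, a rule met upward by 1.29% of 17019 genes tested and in either direction by 1.47%. With lactate, 4 members rose against sham, Nptx2, Inhba, Ptgs2 and Gadd45g, beside 7.88% of 17262 genes upward and 10.4% in either direction. None of the 10 fell in either comparison. Between lactate and vehicle no member was called. The median log2 fold change of the 10 members was 1.41 for vehicle against sham, 1.08 for lactate against sham and -0.47 for lactate against vehicle, and that of all genes tested was 0.00, -0.03 and -0.03. With lactate mouse 2 left out, an omission chosen after its values were seen, the members' median was 0.37 for lactate against sham and -1.38 for lactate against vehicle. With any single mouse left out, the median for vehicle against sham was between 1.15 and 1.69, and for lactate against vehicle it ran from -0.71 without vehicle mouse 4 to -0.17 without vehicle mouse 3 over the omissions other than lactate mouse 2. Both comparisons with sham use the same 4 sham mice. In bulk tissue, fewer cells of a type and less RNA per cell cannot be told apart. The values of all members in all mice, in CPM (the gene's share of a mouse's counted reads, scaled to a fixed total), are plotted here, and the mouse numbers in the text are those of the labels.

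**Figure D1:**
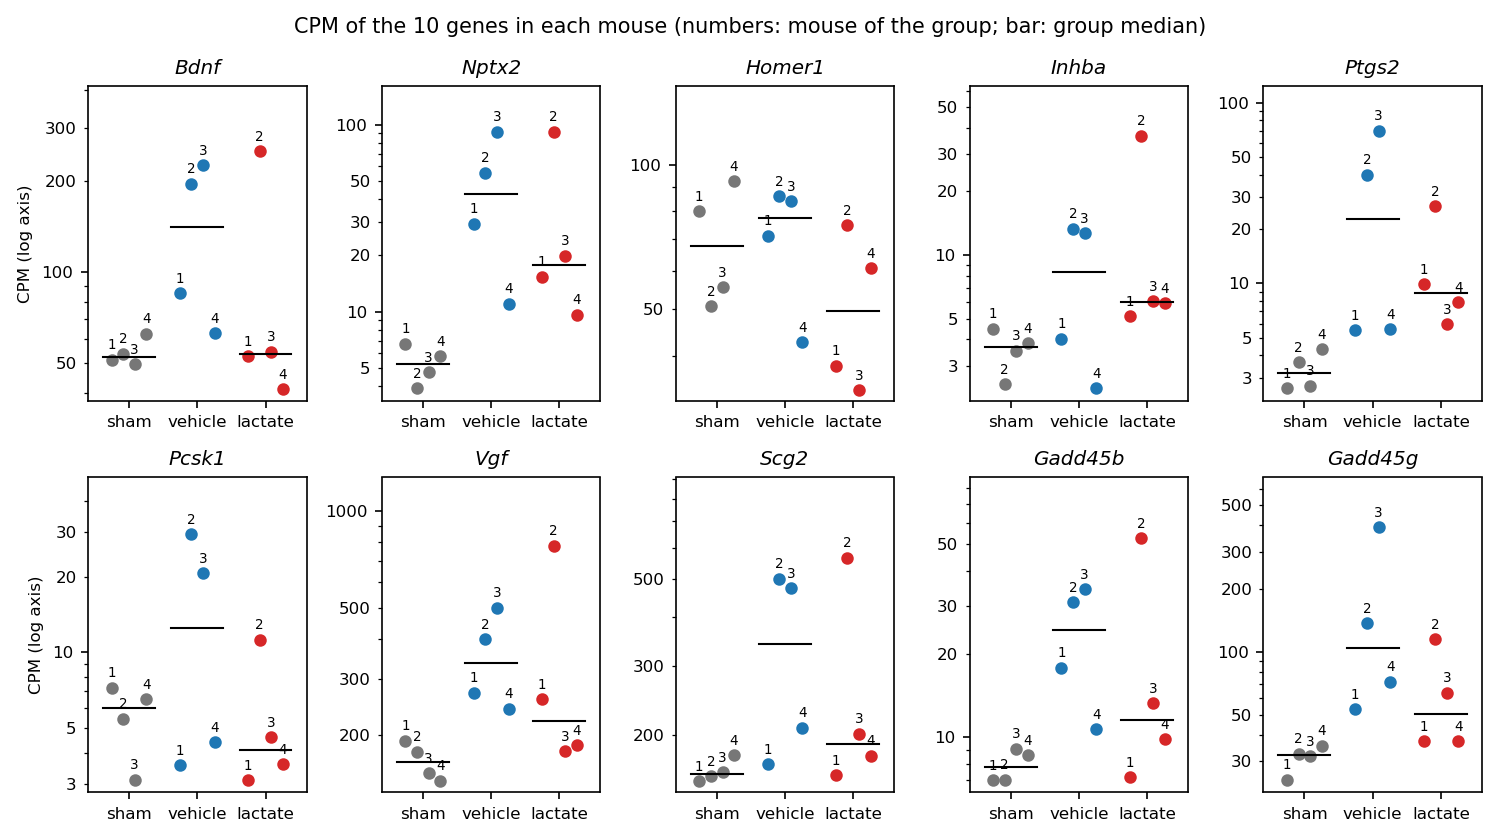
CPM of each of the 10 genes (log axis) in the 4 mice of each group, with the mouse's number over each point and a bar at the group median. Vehicle mice 2 and 3 and lactate mouse 2 are the 3 highest points in every panel except that of Homer1.

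Bdnf (ENSMUSG00000048482, chr2:109674700-109727007 on GRCm38, plus strand) had 51.4, 53.8, 49.7 and 62.7 CPM in sham mice 1 to 4. The vehicle mice had 85.2, 196, 225 and 62.8 CPM, and the lactate mice 52.9, 251, 54.7 and 41.2 CPM. All 4 vehicle mice were above all sham mice, mouse 4 only just, while in the lactate group mouse 2 was far above sham, mice 1 and 3 lay within the sham range and mouse 4 lay below it. The means were 142 ± 80.3 CPM with vehicle, 99.9 ± 101 with lactate and 54.4 ± 5.75 in sham (SD, n = 4). The log2 fold change against sham was 1.42 (SE 0.33, edgeR adjusted p = 0.0599) with vehicle and 0.91 (SE 0.45, adjusted p = 0.220) with lactate, so that neither passed. The vehicle value lay close to the limit, and its adjusted p was below 0.05 in 5 of the 16 other settings, among them DESeq2 (0.00207), the exact test of edgeR (0.000807) and the omission of vehicle mouse 1 (0.0253) or 4 (0.00870), and reached 0.193 in the others. Without lactate mouse 2 the lactate value turned to -0.10 (adjusted p = 0.739). Between lactate and vehicle the log2 difference was -0.53 with a 95% interval of -1.75 to 0.70, which holds differences of more than 1.5-fold in either direction.

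Around Bdnf, the list of neurotrophins, their receptors and the proteases that process them had 12 of 16 genes tested against sham. With vehicle 2 of the 12 rose and none fell, and with lactate 1 rose and none fell. Plat, which encodes tissue plasminogen activator, a secreted protease that acts on the pathway that matures proBDNF, rose by a log2 of 1.35 with vehicle (SE 0.23, adjusted p = 0.0104) and 1.11 with lactate (SE 0.20, adjusted p = 0.00354), and all 8 ischemic mice were above all sham mice. Furin, a convertase that cuts proneurotrophins, rose by 0.95 with vehicle (SE 0.21, adjusted p = 0.0486), with 8.43 to 11.0 CPM against 4.07 to 6.07 CPM in sham. With lactate, Furin ranged from 3.16 to 17.2 CPM and its log2 change of 0.82 did not pass (adjusted p = 0.194). The list's median was 0.12 with vehicle and 0.13 with lactate.

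Nptx2 (ENSMUSG00000059991, chr5:144545902-144557478, plus strand) had 6.73, 3.9, 4.75 and 5.8 CPM in the sham mice, 29.6, 55.4, 91.6 and 11.0 CPM in the vehicle mice and 15.4, 91.7, 19.9 and 9.62 CPM in the lactate mice. Each of the 8 ischemic mice was above each sham mouse, and within either treatment the highest mouse was many times the lowest. Nptx2 rose 9.08-fold with vehicle (log2 3.18, SE 0.50, adjusted p = 0.00606) and 6.63-fold with lactate (log2 2.73, SE 0.59, adjusted p = 0.0102). It was the only member called in both comparisons under each of the 16 other settings that refitted the genes, the omission of any single mouse among them. Without lactate mouse 2 its log2 rise with lactate was 1.54 (SE 0.26, adjusted p = 0.00324). Lactate against vehicle gave -0.47 with an interval of -1.97 to 1.03. None of the other pentraxin and AMPA receptor genes, 6 of 6 tested, was called or past the unadjusted limits in any comparison. Nptx1, the nearest relative of Nptx2, missed the fold limit only: it was 1.47-fold higher with lactate than in sham (log2 0.56, SE 0.14, adjusted p = 0.0195), with 36.8 to 50.5 CPM against 26.6 to 36.5 CPM. It was picked out after its values were seen. Gria2, the receptor subunit that limits calcium entry, had 255 to 397 CPM in sham, 270 to 291 CPM with vehicle and 199 to 354 CPM with lactate.

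Homer1 (ENSMUSG00000007617, chr13:93299635-93405129, plus strand) was the member that did not follow the others. It had 80.2, 50.8, 55.5 and 92.6 CPM in sham, 71.2, 86.0, 84.0 and 42.7 CPM with vehicle and 38.1, 74.8, 33.9 and 61.0 CPM with lactate, and the 3 groups overlapped. The log2 fold change was 0.06 (SE 0.24) with vehicle and -0.39 (SE 0.25) with lactate, with adjusted p-values of 0.939 and 0.336. The vehicle value changed sign when some single mice were left out. Among the partners of the scaffold, 13 of 13 tested, none was called in any comparison, and 1, Homer3, was past the unadjusted limits, lower with lactate than in sham. Dlg4 (PSD-95, the main scaffold of excitatory synapses) was listed at 331 to 445 CPM in sham, 218 to 337 CPM with vehicle and 298 to 339 CPM with lactate.

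Inhba (ENSMUSG00000041324, chr13:16011851-16031621, plus strand) encodes the subunit of activin A. It had 4.48, 2.45, 3.53 and 3.82 CPM in sham, 4.03, 13.3, 12.7 and 2.35 CPM with vehicle and 5.14, 36.6, 6.07 and 5.91 CPM with lactate. The vehicle mice fell into a pair above sham and a pair within or just below its range, whereas all 4 lactate mice were above all sham mice. Inhba rose 3.88-fold with lactate (log2 1.95, SE 0.58, adjusted p = 0.0431), a call that held in 3 of the 8 fits with 1 mouse left out. It was lost without lactate mouse 2 (log2 0.72, adjusted p = 0.0932) and without any 1 sham mouse (adjusted p up to 0.104). With vehicle the log2 value was 1.22 (SE 0.47, adjusted p = 0.274). Lactate against vehicle gave 0.72 with an interval of -0.77 to 2.20, so the call against sham with lactate alone does not show a difference between the treatments. In the activin and inhibin pathway 13 of 15 genes were tested for vehicle and 14 for lactate. The only call was Smad3, a transcription factor that carries the activin signal, which rose by a log2 of 0.77 with lactate (SE 0.18, adjusted p = 0.0154).

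Ptgs2 (ENSMUSG00000032487, chr1:150100031-150108227, plus strand) had 2.64, 3.68, 2.72 and 4.32 CPM in sham. The vehicle mice had 5.53, 39.9, 70.1 and 5.58 CPM and the lactate mice 9.87, 26.7, 5.93 and 7.88 CPM. All 8 ischemic mice lay above sham, but vehicle mice 1 and 4 lay close to it. Ptgs2 rose 9.15-fold with vehicle (log2 3.19, SE 0.72, adjusted p = 0.0491), close to the limit, and the call held in 2 of the 8 fits that left out 1 mouse. Without vehicle mouse 3 the log2 value was 2.37 (adjusted p = 0.144). Ptgs2 rose 3.83-fold with lactate (log2 1.94, SE 0.42, adjusted p = 0.0105), and that call held in all 8 such fits, with a log2 value of 1.27 without lactate mouse 2 (adjusted p = 0.0116). Of the 16 other settings 15 kept the call, and the fit of all 12 mice lost it (adjusted p = 0.117). Lactate against vehicle gave a log2 of -1.27 with an interval of -2.88 to 0.34. Of the other genes of prostaglandin synthesis and reception 12 of 18 were tested against sham. Ptges, the synthase that turns the product of COX-2 into prostaglandin E2, was the only call, with 2.28 to 2.77 CPM in the lactate mice against 1.00 to 1.49 CPM in sham (log2 0.92, SE 0.28, adjusted p = 0.0477). With vehicle its log2 value was as large, 0.92, but did not pass (SE 0.37, adjusted p = 0.292), and its mice ranged from 1.32 to 3.49 CPM.

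**Figure D2:**
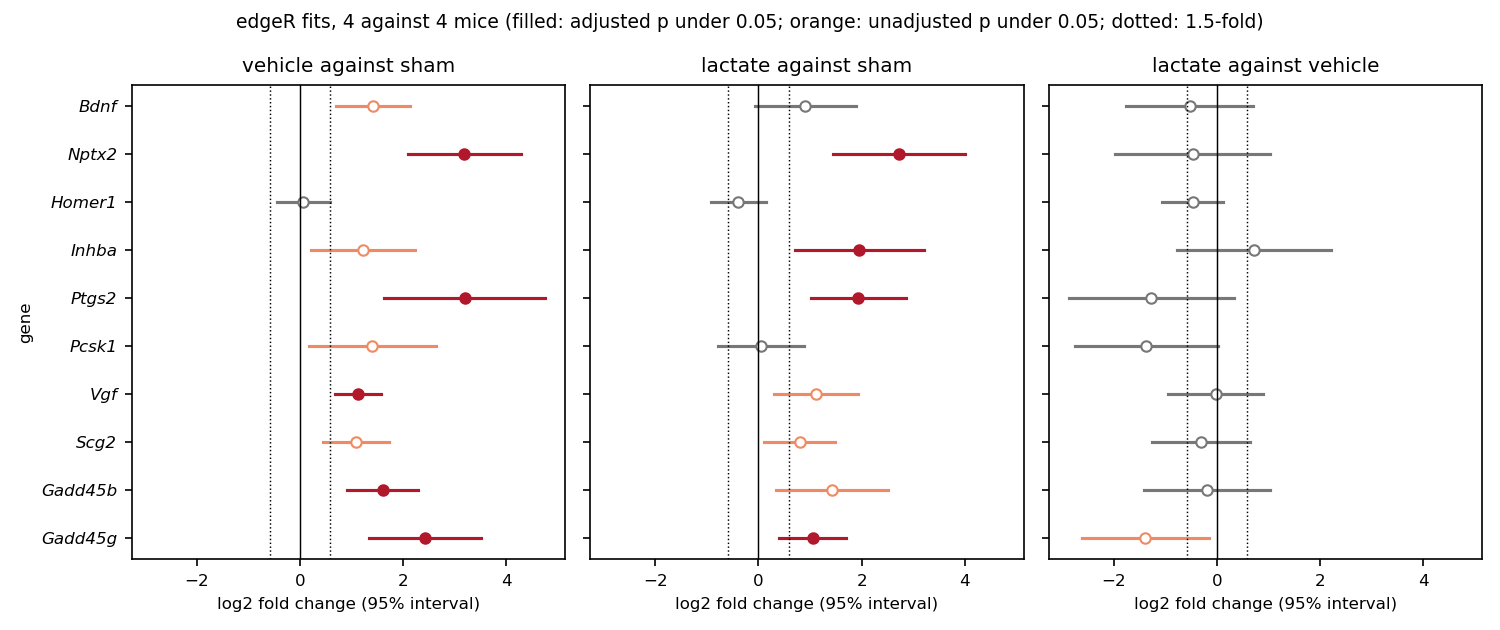
log2 fold change of each gene with its 95% interval in the 3 comparisons, 4 against 4 mice. Filled points passed the adjusted limit and a fold change of 1.5, 5 for vehicle against sham, 4 for lactate against sham and 0 for lactate against vehicle, and orange marks the further genes past the unadjusted limit.

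Pcsk1 (ENSMUSG00000021587, chr13:75089826-75134861, plus strand) had 7.25, 5.46, 3.12 and 6.54 CPM in sham, 3.56, 29.5, 20.7 and 4.4 CPM with vehicle and 3.11, 11.3, 4.62 and 3.59 CPM with lactate. Vehicle mice 2 and 3 and lactate mouse 2 stood above sham, and the other 5 ischemic mice lay within or just below the sham range. The log2 fold change was 1.40 with vehicle (SE 0.57, adjusted p = 0.300, and 0.80 without vehicle mouse 2) and 0.05 with lactate (SE 0.38, adjusted p = 0.954). Lactate against vehicle gave -1.37 with an interval of -2.76 to 0.02 and an unadjusted p of 0.0524 in edgeR.

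Vgf (ENSMUSG00000037428, chr5:137026392-137033351, plus strand) had 192, 177, 152 and 144 CPM in sham, 271, 398, 500.2 and 242 CPM with vehicle and 258, 782, 178 and 186 CPM with lactate. All vehicle mice were above all sham mice, and among the lactate mice 3 and 4 lay within the sham range. Vgf rose 2.17-fold with vehicle (log2 1.12, SE 0.21, adjusted p = 0.0169), a call that held in 4 of the 8 fits with 1 mouse left out. With lactate the log2 value was nearly the same, 1.11, but its error was larger (SE 0.38, adjusted p = 0.0734). That value passed in 5 of the 16 other settings, 2 of them with 1 mouse left out (adjusted p down to 0.0165). Without lactate mouse 2 it was 0.36 (adjusted p = 0.162). Lactate against vehicle gave -0.03 with an interval of -0.95 to 0.90.

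Scg2 (ENSMUSG00000050711, chr1:79434669-79440120, minus strand), the precursor of the peptide secretoneurin, had 153, 157, 161 and 177 CPM in sham, 169, 500.4, 474 and 209 CPM with vehicle and 158, 565, 202 and 177 CPM with lactate. It had the smallest spread of the members in sham, an SD of 0.09 on the log2(CPM + 1) scale, and 3 mice far above that. The log2 fold change was 1.09 with vehicle (SE 0.29, adjusted p = 0.111) and 0.80 with lactate (SE 0.32, adjusted p = 0.125), and the lactate value was 0.18 without lactate mouse 2. The other granins, convertases and peptide-processing enzymes were tested in full, 16 of 16, and none was called in any comparison. Pcsk1n and Cpe, 2 of the 16, were past the unadjusted limits upward with vehicle and none with lactate. Pcsk1n (proSAAS), which inhibits the convertase encoded by Pcsk1, had 306 to 452 CPM in sham, 362 to 1142 CPM with vehicle and 350.2 to 950.2 CPM with lactate, with a log2 change of 1.05 with vehicle that did not pass (adjusted p = 0.111).

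Gadd45b (ENSMUSG00000015312, chr10:80930073-80932204, plus strand) had 6.99, 7.02, 9.1 and 8.63 CPM in sham, 17.9, 31.0, 34.5 and 10.7 CPM with vehicle and 7.17, 52.7, 13.3 and 9.86 CPM with lactate. The vehicle mice were all above sham, and lactate mouse 1 lay within the sham range. Gadd45b rose 3.03-fold with vehicle (log2 1.60, SE 0.32, adjusted p = 0.0242), a call that held in 2 of the 8 fits with 1 mouse left out. With lactate its log2 value was 1.42 (SE 0.50, adjusted p = 0.0828), and 0.39 without lactate mouse 2. Lactate against vehicle gave -0.20 with an interval of -1.42 to 1.02.

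Gadd45g (ENSMUSG00000021453, chr13:51846678-51848468, plus strand) had 24.4, 32.4, 31.6 and 35.5 CPM in sham, 53.0, 137, 393 and 71.9 CPM with vehicle and 37.2, 114, 63.7 and 37.2 CPM with lactate. All 8 ischemic mice were above all sham mice, lactate mice 1 and 4 only slightly. Gadd45g rose 5.37-fold with vehicle (log2 2.43, SE 0.50, adjusted p = 0.0309) and 2.07-fold with lactate (log2 1.05, SE 0.30, adjusted p = 0.0378). Those calls held in 3 and 2 of the 8 fits with 1 mouse left out. Without vehicle mouse 3, by far the highest, the log2 rise with vehicle was 1.53 (adjusted p = 0.0254), and without vehicle mouse 2 the call was lost (adjusted p = 0.0605). Without lactate mouse 2 the log2 rise with lactate was 0.60 and did not pass (adjusted p = 0.0895). Gadd45g was the only member past the unadjusted limits between the treatments, which 6.23% of genes passed in either direction. It was 2.61-fold lower with lactate (log2 -1.38, interval -2.61 to -0.16, unadjusted p = 0.0300), and its adjusted p in edgeR was 0.536. With single mice left out this difference ranged from -1.84 to -0.49, and without vehicle mouse 3 it was not past those limits. Of the family list, 9 of 9 genes were tested. Cdkn1a (p21), a cell-cycle inhibitor that binds Gadd45 proteins and responds to stress, rose by a log2 of 2.52 with vehicle (SE 0.23, adjusted p = 4.03e-05) and 2.54 with lactate (SE 0.26, adjusted p = 4.63e-05). Tdg, a glycosylase of active DNA demethylation, rose by 0.70 with lactate (SE 0.18, adjusted p = 0.0249) and had a value of 0.78 with vehicle that did not pass (adjusted p = 0.286).

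The groups can also be read by the overlap of single mice. In 6 members (Bdnf, Nptx2, Ptgs2, Vgf, Gadd45b and Gadd45g) every vehicle mouse was above every sham mouse, beside 4.14% of genes tested. The same held for lactate in 4 members, the 4 that were called, beside 10.4% of genes. Nptx2, Ptgs2 and Gadd45g, 3 of the 10, were above every sham mouse in all 8 ischemic mice, beside 2.77% of 17540 genes tested. At looser limits, a 1.5-fold change with an unadjusted p under 0.05, all members but Homer1, 9 of 10, were past the limit upward with vehicle, beside 6.5% of genes. With lactate 7 were, all but Bdnf, Homer1 and Pcsk1, beside 11.9% of genes.

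Between lactate and vehicle the count of called members was 0, beside 0.00574% of 17419 genes, with edgeR and also with DESeq2 and the exact test of edgeR. At the unadjusted limits edgeR gave 1 member, beside 6.23% of genes, DESeq2 0, beside 5.85%, and the exact test 3 (Ptgs2, Pcsk1 and Gadd45g, all lower with lactate), beside 6.64%. No member had groups that did not overlap, beside 4.81% of genes. The estimated log2 difference was below 0 for 9 of 10 members, with Inhba the exception. The count at the unadjusted limits moved with single mice. Lactate mouse 2 was the highest lactate mouse for each of the 10 members, so its omission lowers the lactate level by construction. Without lactate mouse 2, 9 members (all but Inhba) were past the unadjusted limits, each lower with lactate, beside 2.8% of 17041 genes that were lower, and none passed after adjustment (adjusted p from 0.553 for Bdnf to 0.853 for Inhba). The count was 4 without vehicle mouse 4, beside 3.69% of genes lower, 3 without vehicle mouse 1, beside 2.58%, and 1 without vehicle mouse 2, beside 2.47%. It was 0 without vehicle mouse 3, beside 2.43%, and 0 without any other single lactate mouse, beside 1.64% to 2.86%. Without lactate mouse 2 the log2 difference was -1.53 for Bdnf, -1.66 for Nptx2 and -0.78 for Vgf.

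The spread between mice was wide in both ischemic groups for most members. On the log2(CPM + 1) scale the median SD of the 10 members was 0.25 in sham, 0.97 with vehicle and 0.93 with lactate. For 17540 genes tested it was 0.23, 0.31 and 0.24. No member was above the 95th percentile of those genes in sham, whereas 8 were with vehicle (all but Homer1 and Vgf) and 9 with lactate (all but Homer1). A list of 15 early activity-induced genes, mostly transcription factors but with Arc, a synaptic cytoskeletal protein, among them, was wide as well, with a median SD of 0.54 in sham, 1.67 with vehicle and 0.87 with lactate, and 8, 14 and 12 of the 15 above that percentile.

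**Figure D3:**
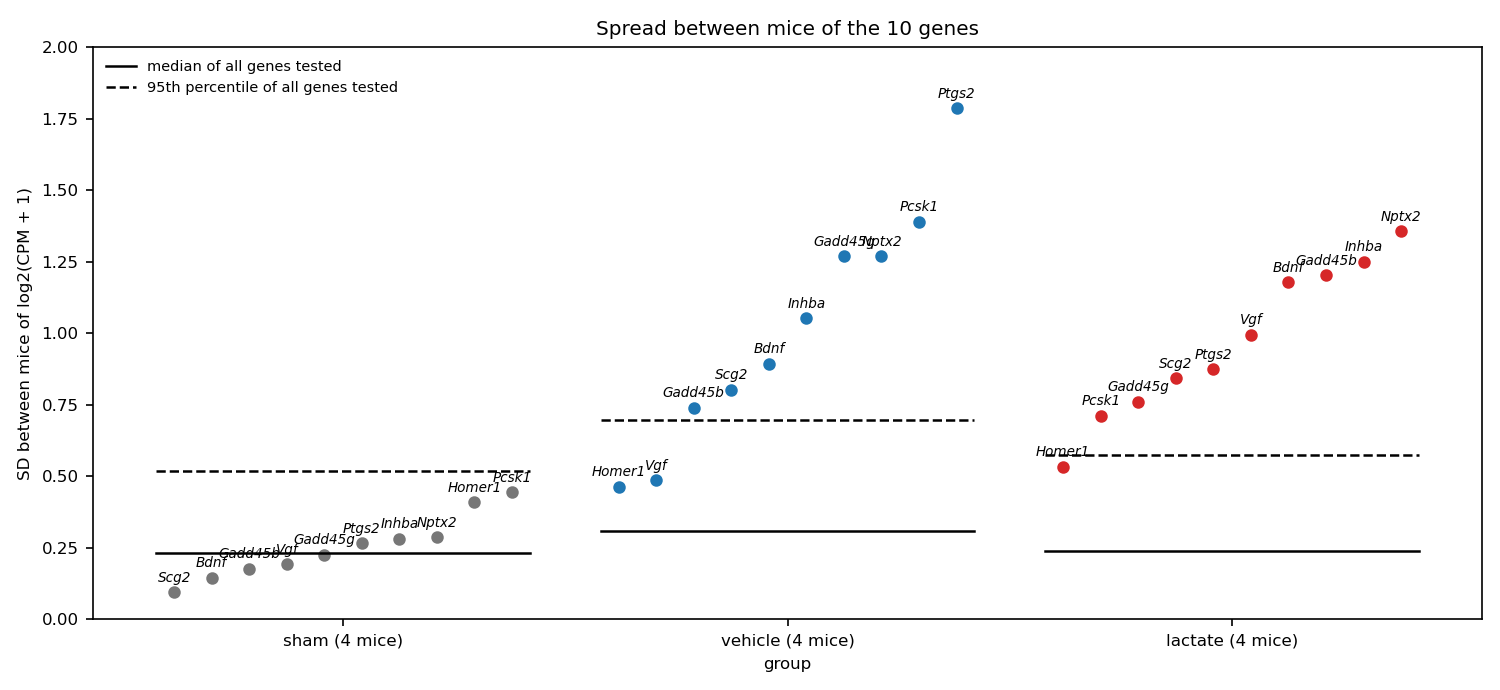
SD between the 4 mice of a group of log2(CPM + 1) for each of the 10 genes, with the median (solid line) and the 95th percentile (dashed line) of 17540 genes tested. The sham points lie between 0.09 and 0.44, below the dashed line, and most points of both ischemic groups lie above theirs.

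Vehicle mouse 2, vehicle mouse 3 and lactate mouse 2 were the 3 highest of the 12 mice in 9 of 10 members, Homer1 being the exception. These mice were singled out after their values were seen, and 1.73% of the 17540 genes tested had the same 3 mice highest. So did 6 of the 15 early genes, or 40% (Fos, Fosb, Egr3, Egr4, Atf3 and Arc). Their median log2 ratio to the sham mean over the members was 1.83, 1.85 and 2.21. It was 0.61 and 0.38 in vehicle mice 1 and 4, and 0.11, 0.47 and 0.21 in lactate mice 1, 3 and 4. In these 5 mice, between 5 and 7 of the 10 members were above all sham mice, beside 23.3% to 27.9% of all genes. The number of members below all sham mice was 0 in vehicle mouse 1, 2 in vehicle mouse 4, 2 in lactate mouse 1, 1 in lactate mouse 3 and 1 in lactate mouse 4, beside 25.5% to 31.4% of all genes. The order among the highest mice differed by gene: lactate mouse 2 led for Bdnf, Nptx2, Inhba, Vgf, Scg2 and Gadd45b, vehicle mouse 3 for Ptgs2 and Gadd45g, and vehicle mouse 2 for Pcsk1.

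The early genes, 15 of 15 tested, were high in vehicle mice 2 and 3 like the late genes, and less so in lactate mouse 2. Their median log2 ratio to sham was 1.30 and 2.44 in vehicle mice 2 and 3 but 0.46 in lactate mouse 2. In the other 5 ischemic mice it was below 0, from -0.45 in vehicle mouse 4 to -1.38 in lactate mouse 1. There 6 to 9 of the 15 genes were below all sham mice, beside 25.5% to 31.4% of all genes. From 0 (lactate mouse 4) to 4 (lactate mouse 3) of the 15 were above all sham mice, beside 23.3% to 27.9% of all genes. Against sham 2 of the 15 rose with vehicle, and with lactate 1 rose and 2 fell. Egr1 fell by 1.35 on the log2 scale with lactate (SE 0.33, adjusted p = 0.0166), with 19.8 to 76.5 CPM against 91.8 to 102 CPM in sham, and Npas4, a neuron-specific factor that acts on Bdnf, fell by 1.69 (SE 0.51, adjusted p = 0.0465). With vehicle the same genes had values of 0.23 and 2.44 that did not pass, and Npas4 ranged from 2.44 to 400.1 CPM. Fosb rose by a log2 of 3.60 with vehicle (SE 0.78, adjusted p = 0.0402). Atf3, a stress-induced factor with 0 to 1.22 CPM in sham, is counted among the rises in both comparisons (adjusted p = 0.0182 and 0.0235). Only 1 sham mouse was at or above the 1 CPM that the filter on low counts asks for. The vehicle mice, at 2.25 to 46.2 CPM, met that filter by themselves. As the filter favours a rise, the Atf3 values are given as a description, and the size of its change is uncertain. Between lactate and vehicle none of the 15 was called, 8 were past the unadjusted limits and lower with lactate, beside 2.47% of all genes lower at those limits, and the list's median was -1.60. The median log2 ratios to sham were -1.07 and -0.45 in vehicle mice 1 and 4, and -1.38, -1.03 and -1.14 in lactate mice 1, 3 and 4. How far this difference rests on vehicle mice 2 and 3 was not tested for this list.

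**Figure D4:**
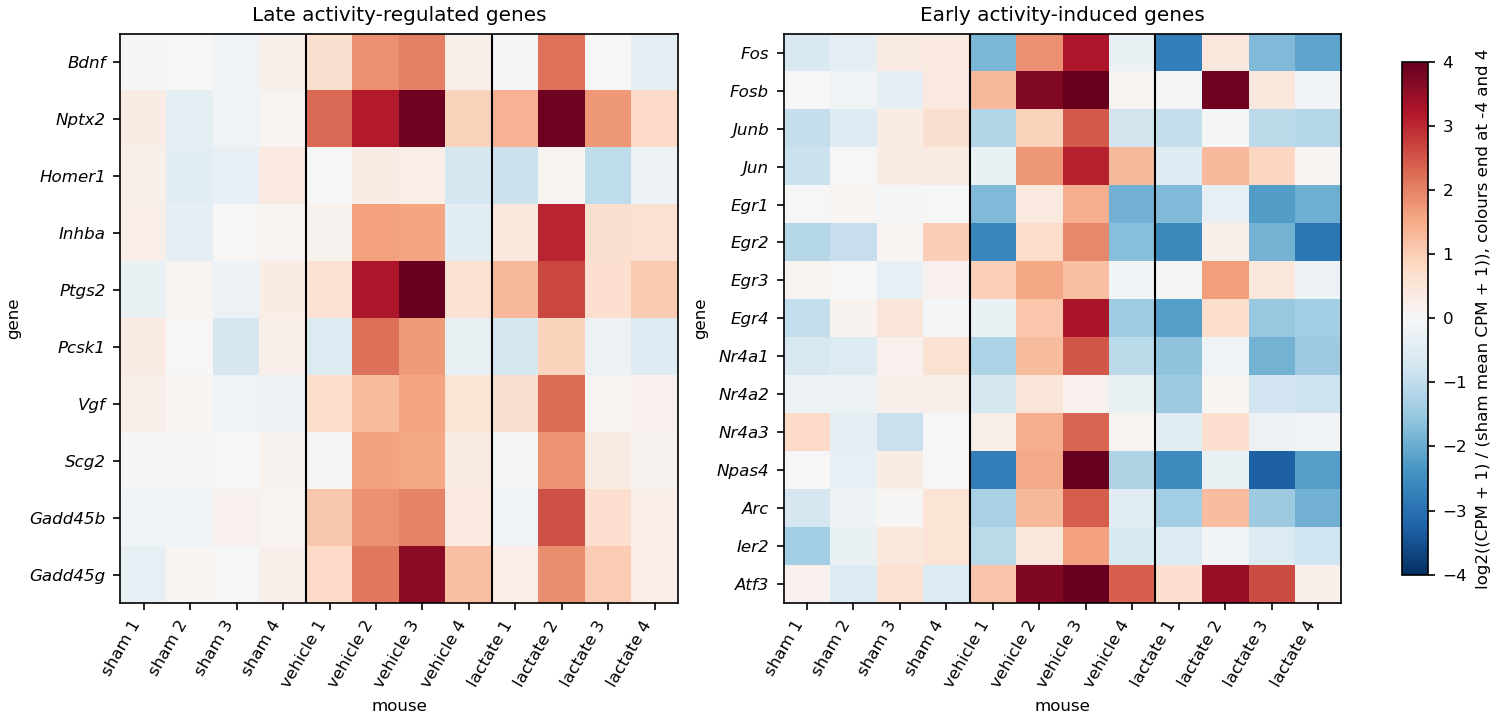
log2 ratio of CPM + 1 to the sham mean plus 1 for each mouse (columns, black lines between groups), for the 10 late genes (left) and 15 early genes (right), with colours ending at -4 and 4. Vehicle mice 2 and 3 are red in both panels, lactate mouse 2 is red on the left and mixed on the right (medians 2.21 and 0.46), and the other 5 ischemic mice are pale or red on the left and mostly blue on the right.

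Of the other late or secreted activity-regulated genes 20 of 21 were tested against sham, and 4 rose in each comparison with none falling. Sgk1, a kinase induced by stress and glucocorticoids, rose by a log2 of 1.67 with vehicle (SE 0.14, adjusted p = 2.23e-05) and 1.76 with lactate (SE 0.12, adjusted p = 1.17e-06). Its 8 ischemic mice ranged from 150.2 to 185 CPM, without the 3 high mice seen for Bdnf, against 45.0 to 59.3 CPM in sham. Per1, a clock gene with an activity-driven promoter, rose by 1.59 with vehicle (SE 0.29, adjusted p = 0.0149) and had a value of 0.48 with lactate that did not pass (adjusted p = 0.163). Gem, a small GTPase that restrains calcium channels, was tested with lactate only, since it passed the filter through the lactate mice alone, with 1.16 to 4.67 CPM against 0.123 to 0.557 CPM (1 to 5 counts) in sham. It is counted among the 4 with lactate, and as that filter favours a rise, its log2 value of 2.58 (SE 0.57, adjusted p = 0.0110) is given as a description. The median of the list was 0.52 with vehicle and 0.47 with lactate. In the list of CREB and its coactivators 13 of 14 genes were tested and none was called or past the unadjusted limits in any comparison. Mef2c, an activity-dependent factor of that list, had a log2 change of -0.44 with lactate (SE 0.11, adjusted p = 0.0191), below the fold limit. Between lactate and vehicle edgeR called none of the genes of these 10 lists, and DESeq2 and the exact test of edgeR each called 1, Per1 (log2 -1.12 and adjusted p = 0.0368 in DESeq2, adjusted p = 0.0305 in the exact test). Past the unadjusted limits and higher with lactate were 1 neurotrophin gene (Sorcs2) and 2 prostaglandin genes (Ptgs1 and Ptger3). Lower with lactate were 1 granin-pathway gene (Cpe) and 2 other late genes (Sik1 and Per1), beside the 8 early genes. For Sik1 the vehicle mice, at 1.03 to 2.46 CPM, met the filter on low counts by themselves, and the lactate mice had 3 to 10 counts. Ptger3 met it mainly through the lactate mice, with 7 to 20 counts against 3 to 8 with vehicle. As the filter favours such differences, the Sik1 and Ptger3 results are given as a description.

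The genes whose pattern was most like that of Bdnf were then sought by the root-mean-square difference of mean-centred log2(CPM + 1) over the 12 mice, among 13141 genes with an Ensembl identifier and a mean of at least 1 CPM. The 5 nearest were Gadd45b (0.29), Scg2 (0.31), Egr3 (0.34), Sertad1 (0.37) and Vgf (0.37), and the same 5 came first with a pseudocount of 0.1 and with a minimum mean of 5 CPM. Thus 3 of the 5 were members. Egr3, an early zinc-finger factor, had 21.5 to 31.0 CPM in sham, 25.2 to 81.2 CPM with vehicle and 23.1 to 89.5 CPM with lactate. Sertad1, a transcriptional coregulator, had 5.35 to 9.23, 8.51 to 21.0 and 7.77 to 27.3 CPM. Pcsk1 was at place 25, Inhba at 37 and Gadd45g at 39, while Ptgs2 was at 255, Homer1 at 533 and Nptx2 at 570. With a pseudocount of 0.1 these places moved, to 947 for Ptgs2, 1544 for Nptx2 and 69 for Inhba. The measure reads the size of a pattern as well as its shape, so a gene that varied more than Bdnf stands further away.

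Markers of brain cells were present in all mice, and no list had vehicle mouse 2, vehicle mouse 3 and lactate mouse 2 as its 3 highest (0 of 11 lists). The summed level of 9 neuron markers was 4853 to 5139 CPM in sham, 3989 to 5904 CPM with vehicle and 4093 to 4742 CPM with lactate. The summed level of 8 neutrophil markers was 0.557 to 2.77 CPM in sham, 8.95 to 73.4 CPM with vehicle and 16.5 to 40.3 CPM with lactate, and vehicle mice 2 and 3 had the highest sums, 52.2 and 73.4 CPM. The defining markers Ly6g, Ngp, Camp and Ltf had at most 3 counts in any mouse. Markers of striatal projection neurons summed to 168 and 150.2 CPM in vehicle mice 2 and 4 and to 288 to 613 CPM in the other mice. Those of the choroid plexus, 5 genes led by Ttr, summed to 1839 CPM in vehicle mouse 2 and to at most 19.2 CPM elsewhere. Some sums did not overlap between a group and sham. With lactate the neuron and choroid plexus sums were of this kind, the former lower and the latter higher, at 10.3 to 19.2 CPM against 1.36 to 5.41 CPM in sham, and the neutrophil sums were higher in both ischemic groups. Red blood cell markers summed to 560.4 to 633 CPM in sham, 333 to 500.4 CPM with vehicle and 375 to 499 CPM with lactate. Microglia markers summed to 236 to 257 CPM in sham and 148 to 231 CPM with vehicle. With lactate, endothelial markers summed to 174 to 219 CPM against 152 to 158 CPM in sham, and striatal markers to 473 to 613 CPM against 288 to 434 CPM. The smallest adjusted p over the 33 comparisons of summed levels was 0.105 (two-sided exact permutation test, 4 against 4 mice, for which the smallest possible unadjusted p is 0.0286, a floor that leaves little room after adjustment). The part of tissue makeup in the members' values was not tested.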

How the data were processed

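RNA of 12 labelled replicates of mouse brain, 1 library each, was amplified as full-length cDNA and sequenced on an Oxford Nanopore instrument. The methods describe removal of short, poor and ribosomal reads, mapping of full-length reads by minimap2, and isoform models built with pinfish that were matched to the annotation with gffcompare. The submitters' processing notes name GRCm38 and DESeq 1.10.1, and how reads were assigned to genes is not given in the sources used here. The authors deposited raw counts per gene and mouse, and CPM values that equal each count scaled to the mouse's total. Their columns of fold changes and p-values between groups were not used. Of the lines, 4 without a gene were left out of totals and tests. Group and mouse number came from the labels.

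Counts were tested with the quasi-likelihood test of edgeR 4.0.16 in R 4.3.3 (TMM normalization, genes with at least 1 CPM in at least 4 of the 8 mice compared, 2 groups per fit), and p-values were adjusted by Benjamini-Hochberg over the whole table of tested genes. A call needed a change of 1.5-fold or more with an adjusted p under 0.05. DESeq2 1.42.0 was an alternative, and other normalizations, filters, call rules, a fit of all 12 mice, a block by mouse number and the omission of each mouse were run as well. The same test was also run on simulated counts with 1 fixed spread for all genes. That spread was smaller than the members' spread in the ischemic groups, so the simulation does not show how the test behaves on these genes. Sums of marker CPM were compared by exact permutation tests with scipy 1.17.1, Python 3.11.15, numpy 2.4.6 and pandas 2.3.3, and plots were drawn with matplotlib 3.10.9. Gene positions are from GENCODE mouse release 21 and promoters from RefSeq. The labels number 4 replicates per group and do not state whether each is a separate animal, so p-values measure the spread between these samples.

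All members were named. Of each gene list, up to 4 genes called in any comparison were named, those with the smallest adjusted p, or the gene with the highest mean CPM where none was called, and the 5 genes most like Bdnf were named. The members and lists were chosen with earlier results of these data known. Per-mouse depth varied less than 2-fold, and members with few reads, such as Inhba and Ptgs2 in sham, have the larger counting errors.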

Additional observations from a re-analysis of the deposited data

Results flagged for a closer look

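A mouse was singled out when its gap to the nearest mouse of its group, divided by the group's range, was above Dixon's 95% critical value. About 1 in 20 groups of 4 normally distributed values passes that limit. The ratio was taken on CPM without logs, and the share of all genes that passes was not computed, so the counts below have no background rate. Of 30 combinations of a member and a group 6 passed, and in each the mouse was lactate mouse 2, so the 6 are not separate results. The ratio was 0.935 for Bdnf, 0.875 for Nptx2, 0.971 for Inhba, 0.867 for Vgf, 0.893 for Scg2 and 0.865 for Gadd45b. In this mouse Bdnf was at 251 CPM and the next lactate mouse at 54.7 CPM, and Inhba was at 36.6 CPM and the next at 6.07 CPM.

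Of 33 combinations of a marker list and a group 4 passed. They were the neuron markers in vehicle mouse 1 (0.853), the oligodendrocyte markers in lactate mouse 1 (0.859), the markers of cortical or hippocampal excitatory neurons in sham mouse 4 (0.918) and the choroid plexus markers in vehicle mouse 2 (0.994). None of these was lactate mouse 2.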

How the results depend on the processing

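The count of called members was 5 for vehicle against sham, 4 for lactate against sham and 0 between the treatments. At the unadjusted limits these counts were 9, 7 and 1. In 1 fit of all 12 mice they were 3, 1 and 0, and DESeq2 gave 2 for lactate against sham, where it gave no adjusted p for Bdnf and Inhba. With single mice left out the counts ranged from 1 to 7, from 2 to 6 and from 0 to 0. For vehicle against sham the count was 1 without vehicle mouse 2 or sham mouse 2, 3 or 4, 2 without sham mouse 1 and 3 without vehicle mouse 3. For lactate against sham it was 2 without lactate mouse 2 or any 1 sham mouse. Other normalizations, no filter on low counts and Ensembl genes alone gave 4 to 6 for vehicle and 3 to 5 for lactate. Between the treatments the members past the unadjusted limits, an alternative chosen after seeing the data, numbered 0 with DESeq2, 3 with the exact test, 2 with no filter on low counts (beside 6.31% of genes), 2 with all 12 mice in 1 fit (7.06%) and 0 to 9 with single mice left out.

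The direction of some small log2 changes turned. With single mice left out Homer1 ranged from -0.045 to 0.25 for vehicle against sham, Bdnf from -0.10 to 1.18 and Pcsk1 from -0.53 to 0.25 for lactate against sham. Between the treatments Nptx2 ranged from -1.66 to 0.065, Inhba from -0.51 to 1.07, Vgf from -0.78 to 0.20 and Gadd45b from -1.23 to 0.085. Pcsk1 for lactate against sham was -0.00856 with no filter, and Vgf between the treatments was 0.022 with Ensembl genes alone. Beyond those in which a mouse was left out, the causes were not tested. Scored by the mean of log2(CPM + 1) instead of the summed CPM, the excitatory neuron markers turned to -0.091 (vehicle against sham) and -0.11 (lactate against sham), the endothelial markers to -0.028 (lactate against sham) and -0.054 (between the treatments), and the astrocyte and oligodendrocyte markers between the treatments to 0.14 and -0.030.

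The labels give no link between samples of the same number in different groups, and their deviations from the group means correlated between -0.148 and 0.158, so the number was not taken to pair them. A fit with the replicate number as a block gave 4, 4 and 0 called members, 3 past the unadjusted limits between the treatments (beside 5.13% of genes), and -0.052 for Pcsk1 with lactate against sham.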
